A study of Mus musculus with 2 samples.

Results

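Stefins are small proteins of the cell interior that bind and block papain-like cysteine proteases such as cathepsins B, H, L and S, which degrade proteins in lysosomes and granules. The mouse carries a tandem array of genes related to stefin A on chromosome 16, and the separate gene Cstb on chromosome 10, which encodes stefin B and is active in most cell types. Genes of the chromosome 16 array are known for high RNA levels in mouse neutrophils, the short-lived phagocytes that carry the calcium-binding proteins S100a8 and S100a9. Described here are Stfa2 and Stfa2l1, stefin A genes, Cstdc4 and Cstdc5, array genes named for their cystatin domain, and Cstb. They were taken by symbol as 5 of 55357 genes in the count matrices, 1 row each. The list was chosen from UMI counts of these same libraries with neutrophils in view, and which values decided is not recorded. Levels by cell class and differences between the libraries are therefore a description, with no test.

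Tumours of 4T1 cells, a mouse line of triple-negative breast cancer, grew in BALB/c mice and were profiled by 10x single-cell RNA sequencing. AptCD4-LNT, which the study title presents as a means to mobilise and activate CD4+ T cells, was dosed by number of cells. It was given in 3 doses at intervals of 3 days, smaller each time. In units of 1000000 cells, the doses were 5, 4 and 3. Untreated mice received PBS. Both groups were sampled on day 9. Each of the 2 libraries holds 3 tumours. With 1 library per group there is no replicate and no test. Intervals are exact 95% intervals that cover counting error only, and mice within a library cannot be told apart.

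The promoters of the 4 array members are shown because these genes had almost the same distribution over cell classes. A further reason is that Stfa2 and Stfa2l1, the closest pair by promoter among these 4, differed between libraries in opposite directions. The sequences are from RefSeq, build GRCm38.p6, each 250 bases before to 50 bases after the annotated start, while the count matrices were made on GRCm39. They lie at chr16:36408314-36408613 on the minus strand (Stfa2), chr16:36156561-36156860 on the plus strand (Stfa2l1), chr16:36183962-36184261 on the plus strand (Cstdc4) and chr16:36367521-36367820 on the minus strand (Cstdc5). No entry was found for Cstb, so 4 of 5 members matched. Capitals mark a stretch of 13 bases that all 4 promoters share, and no shared stretch is longer. Another shared stretch of the same length, gatcatttcttct, lies after it. That stretch is not marked and was not searched for in other promoters.
Stfa2: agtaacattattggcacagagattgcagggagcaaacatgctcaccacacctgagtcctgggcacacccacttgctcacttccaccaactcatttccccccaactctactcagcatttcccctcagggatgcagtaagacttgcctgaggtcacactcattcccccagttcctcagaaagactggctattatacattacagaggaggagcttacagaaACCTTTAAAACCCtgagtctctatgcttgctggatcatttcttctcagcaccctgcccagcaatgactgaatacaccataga
Stfa2l1: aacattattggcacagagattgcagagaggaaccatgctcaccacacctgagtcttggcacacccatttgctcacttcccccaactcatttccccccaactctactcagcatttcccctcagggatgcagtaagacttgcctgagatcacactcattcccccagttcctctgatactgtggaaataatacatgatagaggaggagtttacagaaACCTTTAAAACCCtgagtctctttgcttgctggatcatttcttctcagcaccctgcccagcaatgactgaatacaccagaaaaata
Cstdc4: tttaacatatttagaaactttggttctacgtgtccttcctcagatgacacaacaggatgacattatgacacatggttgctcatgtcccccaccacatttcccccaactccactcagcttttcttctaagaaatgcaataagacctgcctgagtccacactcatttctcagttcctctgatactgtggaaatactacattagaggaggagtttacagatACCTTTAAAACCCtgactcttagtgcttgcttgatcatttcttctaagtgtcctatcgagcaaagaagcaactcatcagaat
Cstdc5: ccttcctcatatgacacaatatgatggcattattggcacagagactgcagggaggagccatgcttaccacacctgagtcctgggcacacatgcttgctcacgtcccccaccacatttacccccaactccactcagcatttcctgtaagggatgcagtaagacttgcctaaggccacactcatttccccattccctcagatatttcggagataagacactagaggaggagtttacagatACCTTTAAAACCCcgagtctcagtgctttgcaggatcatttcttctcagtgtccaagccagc

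The marked stretch, ACCTTTAAAACCC, began 32 bases before the annotated start in Stfa2 and Cstdc4, 36 bases before it in Stfa2l1 and 12 bases before it in Cstdc5. Searched on both strands, it was held by 9 of 32851 promoters of the same length (0.0274%), and all 9 lie on chromosome 16: those of Stfa2, Stfa2l1, Cstdc4, Cstdc5, Stfa1, Stfa3, Csta3, Cstdc3 and Gm7260. The Stfa2 and Stfa2l1 promoters were 91.7% identical, and the other pairs among the 4 were 69.3% to 78.7% identical. With matches taken over the longer transcript of each pair, Stfa2l1 was 77.6% identical to Cstdc4 and 76.6% to Stfa2. The Stfa2 transcript is longer, at 471 bases against 419 for Stfa2l1 and 414 for Cstdc4, and its extra bases count as mismatches. These 2 values therefore do not show which gene is closer to Stfa2l1. GAGGAA, the core of sites for the myeloid factor encoded by Spi1, occurred in 4 of 4 member promoters and in 28.3% of all promoters. TTGCNNAA, a pattern of C/EBP sites, occurred in 1 of 4, Cstdc5, and in 10.8% of all promoters, and TATAAA occurred in 0 of 4 and in 13.6% of all. These matches describe letters and not bound sites. In the same annotation 11 of the 12 protein-coding genes from Csta1 to Stfa3 belong to the family, in the order Csta1, Stfa2l1, Cstdc4, Csta3, Csta2, Stfa1, Cstdc3, Cstdc6, Cstdc5, Stfa2, Stfa3.

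Likeness between the genes also limits the counts. Among words of 50 bases in the last 400 bases of the annotated transcript (GENCODE, GRCm38), 17.9% of those of Stfa2 also occurred in Stfa2l1 or Cstdc3, and 17.7% of those of Stfa2l1 occurred in Stfa2. For Cstdc4 the share was 37.0%, all in Csta2, and for Cstdc5 it was 50.4%, in Csta1, Cstdc6 and Stfa1. For Cstb it was 0%. Reads from such stretches cannot be placed on 1 copy, and which transcript end was read is not given in the sources used here, so single values of array genes are uncertain and the sum of Stfa2 and Stfa2l1 is given as well.

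After filtering, 8653 AptCD4-LNT cells and 18511 Untreated cells remained, with medians of 8591 and 4504 UMIs (unique molecular identifiers, 1 per captured RNA molecule), and 42 barcodes occurred in both libraries. Clustering was done without the stefin family. Of 23 clusters, 3 stood at 10000 CPM or more of S100a8 plus S100a9 (CPM is UMIs per 1000000 UMIs summed over the cells of a cluster or class). Cluster 8 (1677 AptCD4-LNT and 1169 Untreated cells) was led by Hdc, Cxcr2, G0s2 and Csf3r, and cluster 9 (23 and 63 cells) by the granule genes Ngp, Camp and Ltf. These 2 clusters are called neutrophil-like. Cluster 10 (430 and 1761 cells) was led by Hcar2, Ccl3 and Cd274. It had all 12 of the neutrophil markers but none among its 10 leading genes, its median depth was 831 UMIs, and it is given by its number. Members were among the 10 leading genes themselves, Stfa2l1 in cluster 8 and Cstdc4 in cluster 10.

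Neutrophil-like cells were 19.6% (interval 18.8% to 20.5%) of AptCD4-LNT cells, against 6.66% (6.30% to 7.02%) of Untreated cells. All 3 S100a8/S100a9-high clusters together were 24.6% of AptCD4-LNT cells, against 16.2% of Untreated cells. Cluster 10 made up 20.2% of the high cells in the AptCD4-LNT library, against 58.8% in the Untreated library, so different clusters hold most of these cells in the 2 libraries. Neutrophil-like cells had a median of 1418 UMIs in the AptCD4-LNT library and 875.5 in the Untreated library. The 12 neutrophil markers summed to 130782 CPM in AptCD4-LNT and 164076 CPM in Untreated neutrophil-like cells. Markers of other classes in neutrophil-like cells summed to 605 CPM in AptCD4-LNT and 252 CPM in Untreated cells for fibroblasts (9 markers, of which Pdgfrb was at 0 in Untreated cells). The 8 monocyte markers summed to 2337 CPM in AptCD4-LNT and 1692 CPM in Untreated cells, and the 6 plasma cell markers to 148 and 411 CPM. Only 3 of these 6 were detected in each library. Mzb1 and Igkc were at 0 in both, Jchain in AptCD4-LNT and Tnfrsf17 in Untreated cells. Hbb-bs, a haemoglobin gene picked after its values were seen, stood at 147 CPM (133 to 162) in AptCD4-LNT and 14.8 CPM (9.05 to 22.9) in Untreated neutrophil-like cells, and at 401 CPM (348 to 460) and 21.9 CPM (15.4 to 30.4) in cluster 10. For macrophages the 10 markers summed to 457 CPM in AptCD4-LNT and 535 CPM in Untreated cells, and for tumour epithelium the 10 markers summed to 298 and 273 CPM, with Krt5 at 0 in both. Their part in the stefin values was not tested.

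The 4 array stefins were concentrated in the S100a8/S100a9-high clusters, and Cstb was not. Those clusters held 95.4% of all Stfa2 UMIs of the AptCD4-LNT library and 91.7% of those of the Untreated library. The shares were 93.2% and 88.2% for Stfa2l1, 94.1% and 87.2% for Cstdc4, and 93.6% and 89.8% for Cstdc5, again with AptCD4-LNT first and Untreated second. For Cstb they were 5.92% in the AptCD4-LNT library and 6.26% in the Untreated library, while epithelial-like tumour cells held 77.4% and 73.4% of it.

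**Figure D1:**
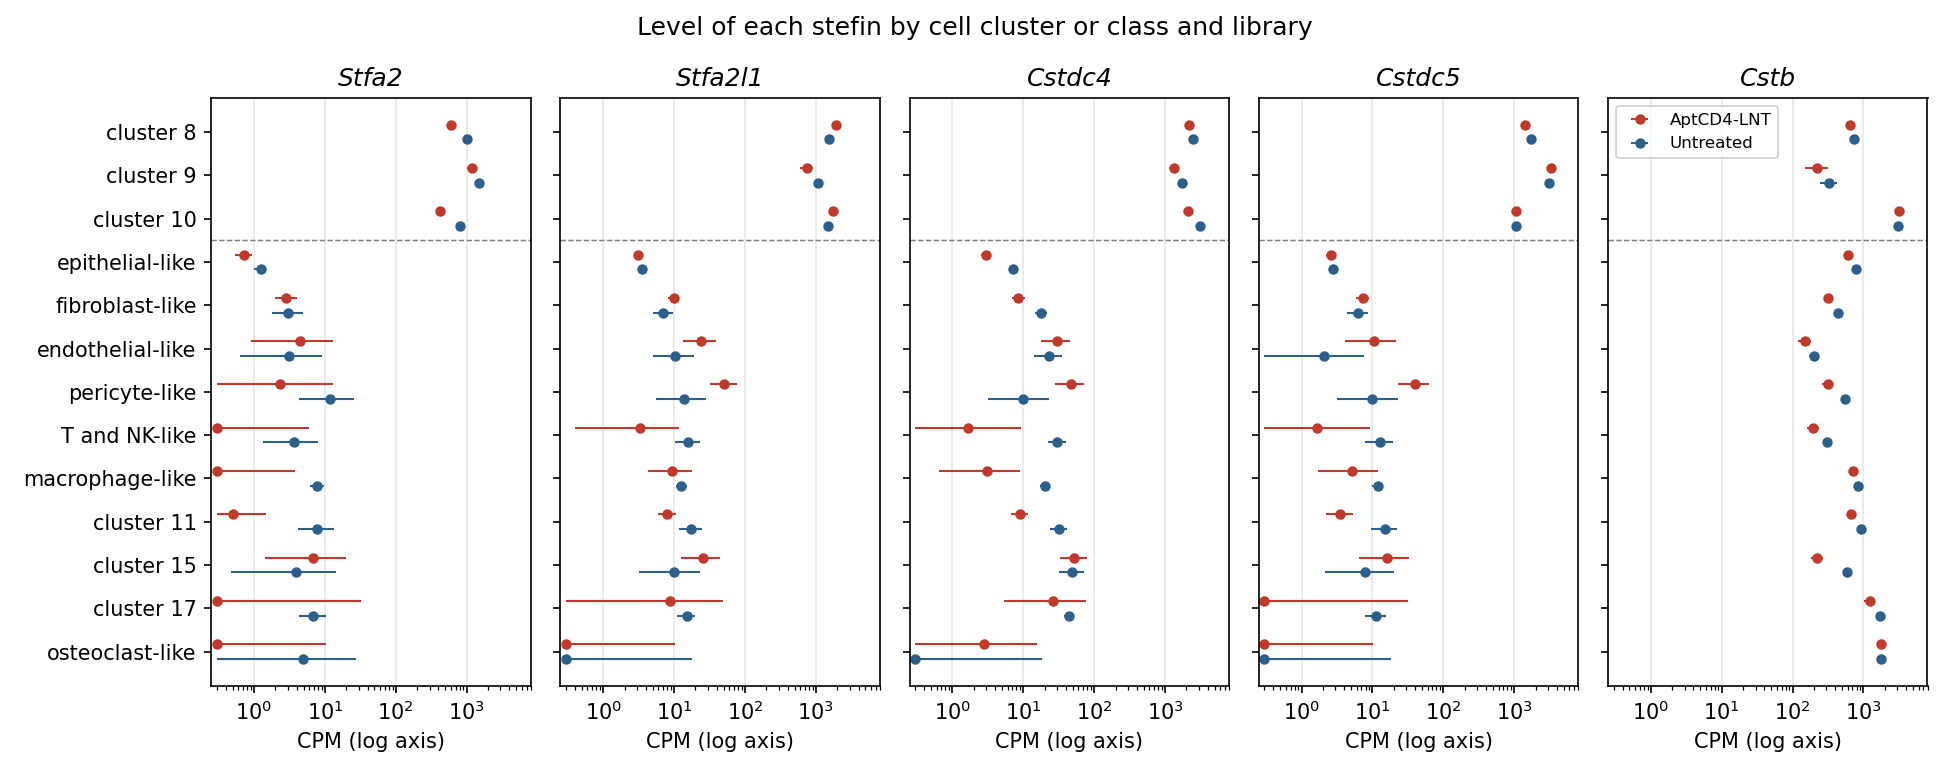
Level of each stefin in CPM (log axis) by cluster or class, with AptCD4-LNT (red) above Untreated (blue) and bars for exact 95% Poisson intervals. Values of 0 and interval ends under 0.3 CPM are drawn at the left edge, and the dashed line separates the S100a8/S100a9-high clusters 8, 9 and 10, where the 4 array genes stood at 421 CPM or more, from the other classes.

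Together the 4 array members reached 6143 CPM in AptCD4-LNT and 6782 CPM in Untreated neutrophil-like cells, and 5350 and 6506 CPM in cluster 10. Outside the high clusters, the highest sums among classes with at least 50 cells in that library were 139.5 CPM in pericyte-like cells of the AptCD4-LNT library and 77.3 CPM in cluster 17, led by Mmp12, Ccl24 and Arg1, of the Untreated library. Epithelial-like cells, the largest class, had 9.34 CPM in the AptCD4-LNT library and 14.8 CPM in the Untreated library. Set against S100a8 plus S100a9, the 4 genes gave 5.86 UMIs per 100 in AptCD4-LNT and 5.02 in Untreated neutrophil-like cells, 11.1 and 9.39 in cluster 10, and 8.22 and 7.93 in epithelial-like cells. The epithelial-like ratio lay between those of neutrophil-like cells and cluster 10 of the same library. The part of free RNA in these low levels was not tested. A higher ratio, 23.5 per 100 (17.1 to 31.6), was seen in cluster 15, led by Timd4, Ccr7 and Igkc, of the AptCD4-LNT library on 44 UMIs, against 7.26 (5.08 to 10.1) in its Untreated cells. Endothelial-like cells stood at 14.0 (10.3 to 18.7) in the AptCD4-LNT library and 16.02 (11.3 to 22.1) in the Untreated library.

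The median gene of neutrophil-like cells (100 UMIs or above) had a log2 ratio of AptCD4-LNT over Untreated of 0.21, so scaling to the total leaves a shift, and member ratios are also given relative to it. A gene was called where its CPM differed at least 1.5-fold and the interval of the ratio excluded 1. In neutrophil-like cells 1 of 5 members, Stfa2, was called lower in AptCD4-LNT, where 3.72% of 7606 genes were, and 0 of 5 were called higher, where 15.7% of genes were. In cluster 10 Stfa2 was again the 1 member of 5 called lower (5.33% of 5985 genes), and 0 were called higher (18% of genes). Over all high clusters Stfa2 and Cstb were called lower, 2 of 5, where 5.94% of 8801 genes were, and 0 were called higher, where 19.3% were. Within cluster 8 Stfa2 was the 1 member called lower (4.75% of 7347 genes), and 0 were called higher (14.2%).

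Stfa2 was lower in AptCD4-LNT in both high clusters large enough to compare. It stood at 637 CPM (607 to 667, 1737 UMIs) in AptCD4-LNT neutrophil-like cells and at 1086 CPM (1031 to 1143, 1465 UMIs) in Untreated ones. The intervals do not overlap, and the log2 ratio was -0.77 (-0.87 to -0.67), or -0.98 relative to the median of all genes. In cluster 8 it stood at 607 CPM in AptCD4-LNT and 1023 CPM in Untreated cells, and within cluster 10 at 421 and 811 CPM, a log2 ratio of -0.95 (-1.16 to -0.74). Cluster 9 had too few AptCD4-LNT cells to be compared, and its intervals overlap, at 1205 CPM (1027 to 1405) in AptCD4-LNT and 1512 CPM (1334 to 1706) in Untreated cells.

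Stfa2l1, the closest to Stfa2 by promoter among the 4 array members, was on the other side. It stood at 1864 CPM (1813 to 1916, 5085 UMIs) in AptCD4-LNT neutrophil-like cells and at 1468 CPM (1404 to 1534, 1981 UMIs) in Untreated ones, a log2 ratio of 0.34 (0.27 to 0.42) but of 0.13 relative to the median of all genes. It was higher in AptCD4-LNT in cluster 8 (1923 against 1525 CPM) and cluster 10 (1770 against 1498 CPM). In the small cluster 9 it stood at 739 CPM (601 to 899) in AptCD4-LNT and 1085 CPM (935 to 1251) in Untreated cells.

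**Figure D2:**
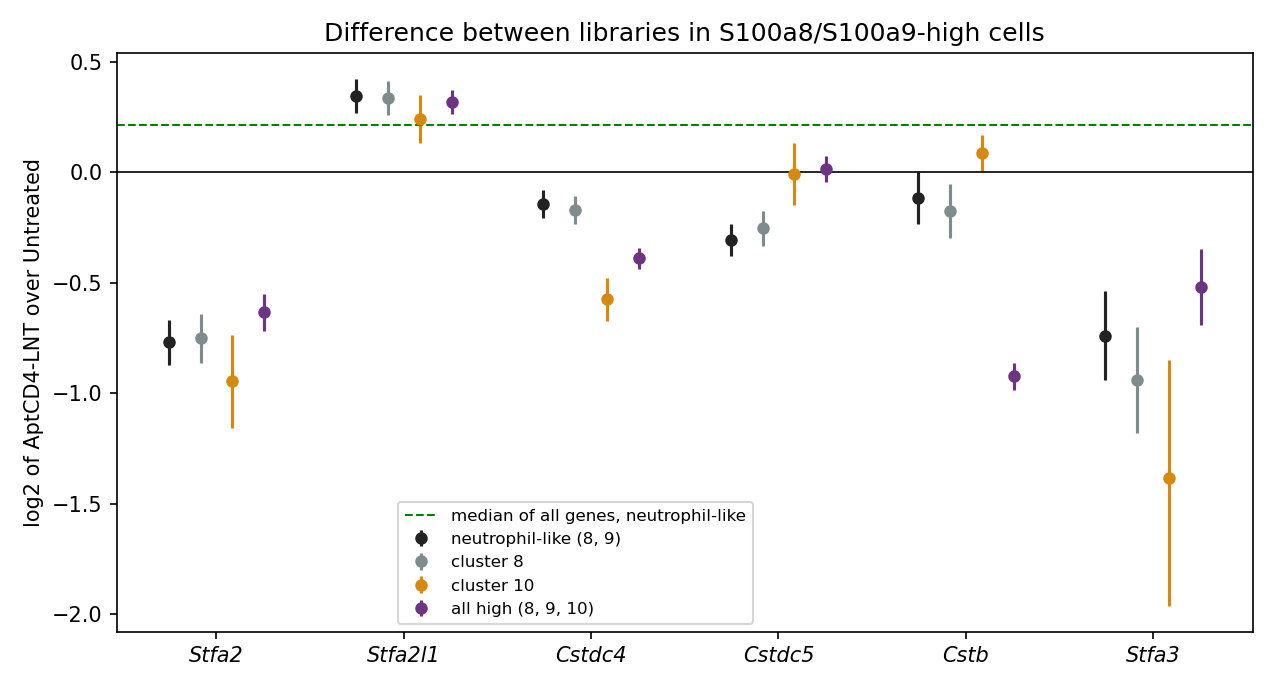
Log2 ratio of AptCD4-LNT over Untreated for the 5 members and Stfa3, in neutrophil-like cells, cluster 8, cluster 10 and all S100a8/S100a9-high clusters, with exact 95% intervals; the dashed line is the median of all genes in neutrophil-like cells, 0.21. Stfa2 and Stfa3 lie under 0 in all 4 sets, Stfa2l1 lies above 0 in all 4, and Cstb lies at -0.92 in all high clusters although it is -0.18 in cluster 8 and 0.09 in cluster 10 (-0.12 relative to the median gene of that cluster).

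Taken as a pair, Stfa2 and Stfa2l1 were close between libraries in CPM in clusters 8 and 10 and differed there in how they were split. Their sum was 2501 CPM in AptCD4-LNT and 2554 CPM in Untreated neutrophil-like cells, a log2 ratio of -0.03 (-0.09 to 0.03), which is below the 0.21 of the median gene. Stfa2 supplied 25.5% (24.4% to 26.5%) of the pair's UMIs in AptCD4-LNT cells, against 42.5% (40.9% to 44.2%) in Untreated cells. The split is independent of scaling to the total, and the log2 odds ratio was -1.11 (-1.24 to -0.99). In cluster 8 Stfa2 had 1574 of 6559 UMIs in AptCD4-LNT and 1203 of 2996 (40.2%) in Untreated cells, and in cluster 10 it was 19.2% and 35.1%. In cluster 9, led by granule genes, Stfa2 was the larger part in both libraries, 62.0% (55.8% to 67.9%) in AptCD4-LNT and 58.2% (53.5% to 62.8%) in Untreated cells, and these intervals overlap. The pair together stood there at 1944 CPM in AptCD4-LNT and 2597 CPM in Untreated cells, a log2 ratio of -0.42 (-0.64 to -0.19).

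**Figure D3:**
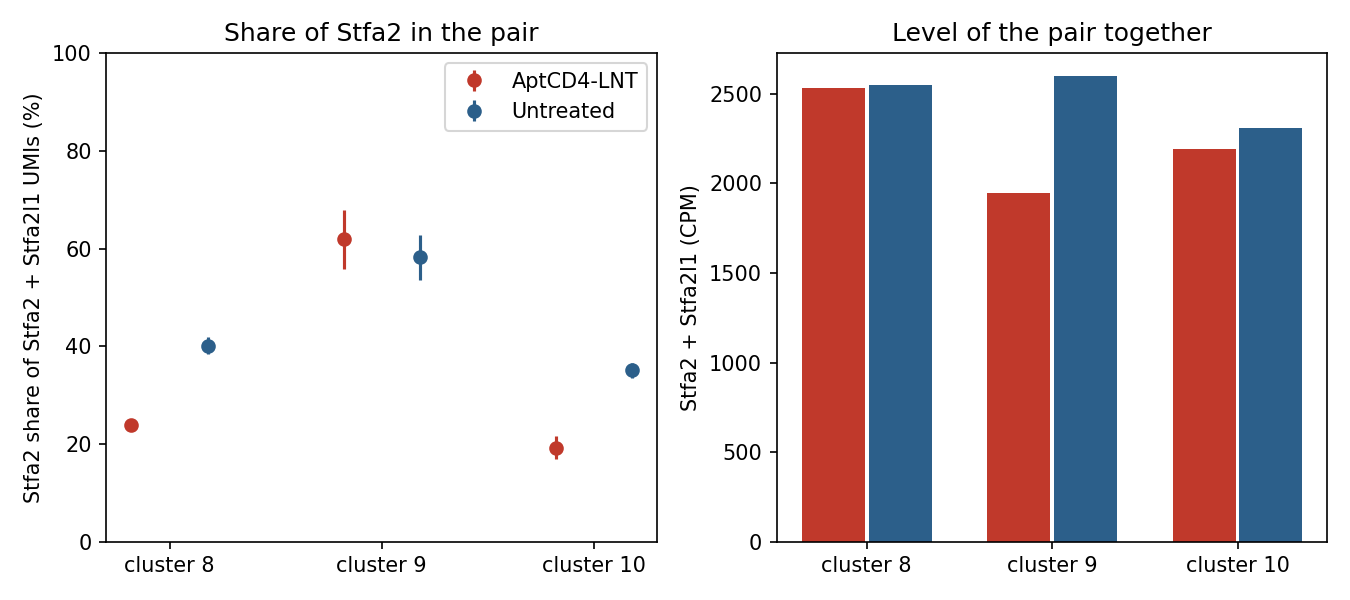
Left, share of Stfa2 in the summed UMIs of Stfa2 and Stfa2l1, in percent with exact 95% binomial intervals, and right, level of the pair together in CPM as bars without intervals, by cluster and library (AptCD4-LNT red, Untreated blue). The share is lower in AptCD4-LNT in clusters 8 and 10, in cluster 10 at 19.2% against 35.1% in Untreated, while the intervals overlap in cluster 9.

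Cstdc4 differed less between libraries in neutrophil-like cells than in cluster 10, where it was lower in AptCD4-LNT. It stood at 2125 CPM (2071 to 2181) in AptCD4-LNT and 2349 CPM (2268 to 2432) in Untreated neutrophil-like cells. The log2 ratio was -0.14 (-0.21 to -0.08), or -0.36 relative to the median of all genes. In cluster 10 it stood at 2105 CPM in AptCD4-LNT and 3138 CPM in Untreated cells, a log2 ratio of -0.58 (-0.67 to -0.48). Its direction in neutrophil-like cells turned with how the cells were chosen, to 0.22 with doublets removed at a rate set by barcode number.

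Cstdc5 stood at 1517 CPM (1471 to 1564) in AptCD4-LNT and 1879 CPM (1806.5 to 1954) in Untreated neutrophil-like cells. The log2 ratio was -0.31 (-0.38 to -0.24), or -0.52 relative to the median of all genes. In cluster 10 no difference was detectable, with 1055 CPM in AptCD4-LNT and 1060 CPM in Untreated cells (log2 ratio -0.01, -0.15 to 0.13). Cluster 8 held 1425 CPM in AptCD4-LNT and 1700.0 CPM in Untreated cells, and cluster 9 held 3289 and 3093 CPM. Over all high clusters the log2 ratio was 0.01 (-0.05 to 0.07).

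Cstb, stefin B, followed a different order over the classes. It was highest in cluster 10, at 3214 CPM (3061 to 3372) in AptCD4-LNT and 3025 CPM (2941 to 3110) in Untreated cells. Osteoclast-like cells followed, with 1796 CPM in AptCD4-LNT and 1763 CPM in Untreated cells on only 23 and 29 cells. Cluster 17 came next, with 1223 CPM (1029 to 1442) on only 26 AptCD4-LNT cells and 1721 CPM (1676 to 1767) on 982 Untreated cells. Below them came the macrophage-like class (706 and 831 CPM), cluster 11 (677 and 913 CPM), cluster 8 (645 and 729 CPM) and epithelial-like cells (614 and 784 CPM), which lie close to each other. Fibroblast-like cells (316 and 444 CPM), pericyte-like cells (314 and 549 CPM), cluster 15 (223 and 592 CPM), T and NK-like cells (196 and 308 CPM), cluster 9 (222 and 323 CPM) and endothelial-like cells (148 and 199 CPM) were lowest. In each pair the AptCD4-LNT value stands first and the Untreated value second.

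The Cstb value over all high clusters was 1036 CPM in AptCD4-LNT and 1966 CPM in Untreated cells, a log2 ratio of -0.92 (-0.99 to -0.86). In neutrophil-like cells Cstb stood at 624 CPM in AptCD4-LNT and 677 CPM in Untreated cells, a log2 ratio of -0.12 (-0.23 to 0.00053) that was not called. Within the high clusters the ratios were -0.18 (-0.30 to -0.06) in cluster 8 and 0.09 (0.01 to 0.17) in cluster 10, where it was -0.12 relative to the median of all genes. Cluster 10 is the part where Cstb is high, and it held 20.2% of the high cells of the AptCD4-LNT library, against 58.8% of those of the Untreated library.

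The other stefins of the array were measured at lower levels. Of the 12 family genes in the matrices, 9 reached 20 UMIs in neutrophil-like cells, 1 of them was called higher in AptCD4-LNT (15.7% of all genes were) and 2 lower (3.72% of all genes), and their median log2 ratio was -0.14, against 0.21 over all genes. The 2 lower ones were Stfa2 and Stfa3, its neighbour in the array, at 165 CPM in AptCD4-LNT and 276 CPM in Untreated cells (log2 ratio -0.74, -0.94 to -0.54). The higher one was Csta3, at 63.8 CPM in AptCD4-LNT and 34.1 CPM in Untreated cells (log2 ratio 0.90, 0.43 to 1.41). Cstdc6 stood at 59.8 CPM in AptCD4-LNT and 77.8 CPM in Untreated cells (-0.38, -0.74 to -0.01), and Stfa1 at 9.17 and 8.15 CPM (0.17, -0.91 to 1.34). Stfa3 also depended on the cluster, with 1049.7 CPM in AptCD4-LNT and 600.1 CPM in Untreated cells of cluster 9, against 119 and 229 CPM in cluster 8. Csta1, Csta2 and Cstdc3 together had few UMIs in the whole series: Csta1 had 10 in the AptCD4-LNT and 11 in the Untreated library, Csta2 had 3 and 0, and Cstdc3 had 0 and 1.

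The stefins seen varied from cell to cell, and the part of UMI sampling in this was not tested. Thinned to 500 UMIs each, 38.0% of AptCD4-LNT and 35.7% of Untreated neutrophil-like cells had a Cstdc4 UMI, and 41.4% and 35.8% had a Stfa2l1 UMI. For Stfa2 the shares were 12.1% (10.5% to 13.7%) in AptCD4-LNT and 19.2% (17.1% to 21.6%) in Untreated cells, and without thinning they were 20.1% and 25.7%. The Cstdc5 shares were 27.6% and 29.3%, and the Cstb shares 24.2% and 26.6%, with overlapping intervals in each case. Epithelial-like cells had medians of 17343 UMIs in the AptCD4-LNT and 7086 in the Untreated library before thinning. At 500 UMIs each array gene occurred in at most 0.233% of AptCD4-LNT epithelial-like cells, against 0.321% of Untreated ones. For Stfa2 it was 0 of 3863 AptCD4-LNT cells (interval up to 0.0954%). Before thinning these shares were 0.932% to 3.47% in AptCD4-LNT and 0.903% to 3.88% in Untreated cells. In cluster 10 Cstb was present in 74.0% of AptCD4-LNT cells, against 68.9% of Untreated ones, at 500 UMIs.

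**Figure D4:**
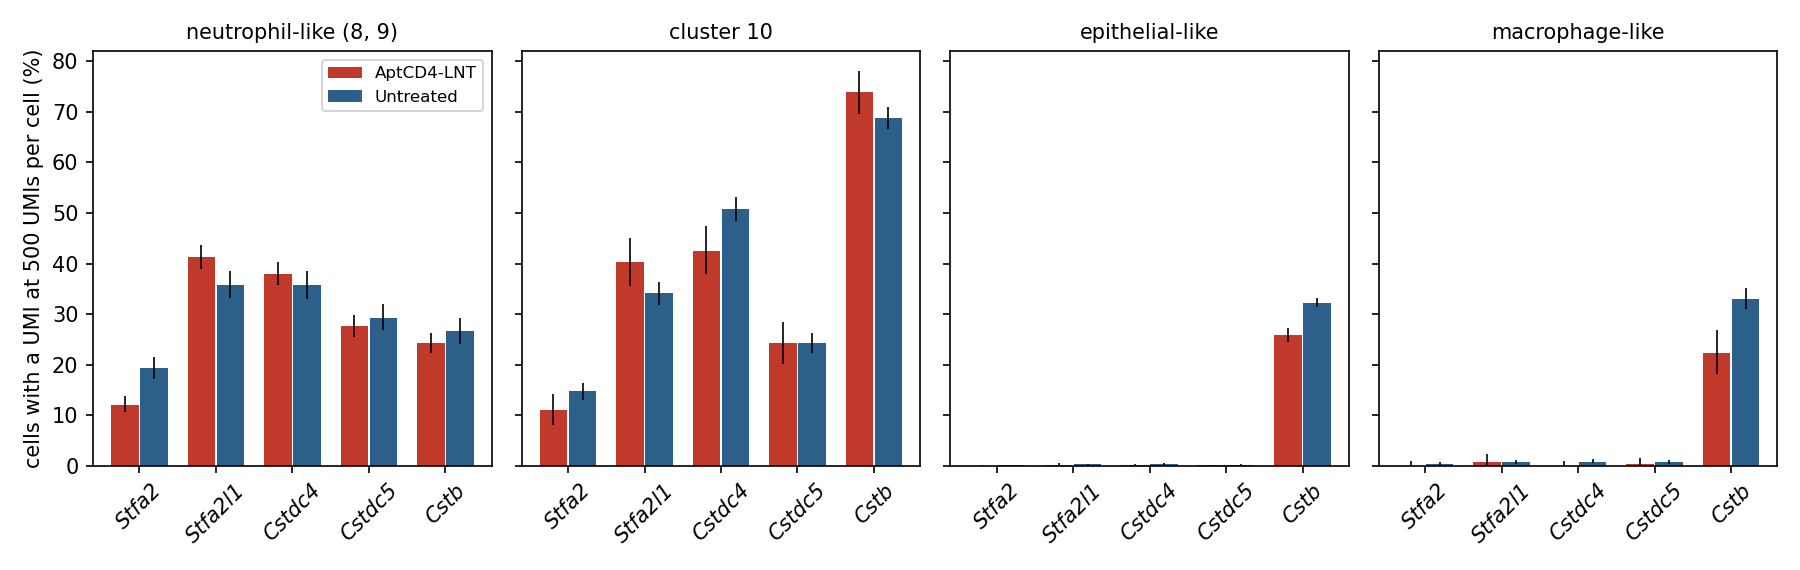
Share of cells with at least 1 UMI of each stefin, in percent, after thinning every cell to 500 UMIs, for AptCD4-LNT (red, left bar) and Untreated (blue, right bar), with exact 95% binomial intervals. The 4 array genes are seen in neutrophil-like cells and cluster 10 and hardly in epithelial-like or macrophage-like cells, while Cstb is seen in all 4 panels.

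At 500 UMIs 37.7% of AptCD4-LNT and 40.4% of Untreated neutrophil-like cells showed none of the 4 array genes, and 4.94% and 7.14% showed all 4. At 1000 UMIs, a depth that 217 of 1700 AptCD4-LNT cells, against 756 of 1232 Untreated ones, did not reach, the genes appeared together. Stfa2 was seen in 38.5% of AptCD4-LNT cells with a Cstdc5 UMI, against 5.68% of those without one. In Untreated cells these shares were 52.4% and 12.05%. Cstdc4 was seen in 64.5% of AptCD4-LNT cells with a Stfa2l1 UMI, against 27.2% of those without, and in 73.8% and 28.0% of Untreated cells. With Cstb the shares lay closer together. Stfa2l1 was seen in 53.5% of AptCD4-LNT cells with a Cstb UMI and 53.3% of those without, and in 50.3% and 49.5% of Untreated cells. Over the 4 array genes the widest gaps were 50.3% against 45.1% for Cstdc4 in AptCD4-LNT and 51.8% against 44.9% for Cstdc5 in Untreated cells.

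Within the neutrophil-like cells the members varied in level over 5 sub-clusters, again made without the stefin family. Sub-cluster 2 (363 AptCD4-LNT and 85 Untreated cells), led by Impa2, F10 and Gbe1, had the highest levels of Stfa2l1 (3015 CPM in AptCD4-LNT and 2025 in Untreated cells), Cstdc4 (3587 and 4357 CPM) and Cstb (872 and 1198 CPM). Its levels of Stfa2 (1081 and 1477 CPM) and Cstdc5 (2334 and 2815 CPM) were close to those of sub-cluster 4, where Stfa2 stood at 966 and 1516 CPM. Sub-cluster 4 (182 and 224 cells), led by Camp, Ngp and Ltf, had Cstdc5 at 2282 CPM in AptCD4-LNT and 2876 CPM in Untreated cells, Stfa3 at 493 and 574 CPM, and the lowest Cstb of the 5, at 217 and 356 CPM. In sub-cluster 0 (960 and 341 cells), led by Hbb-bs, a haemoglobin gene, Dusp2 and Tnf, Stfa2 was lowest, at 303 CPM in AptCD4-LNT and 368 CPM in Untreated cells. Sub-cluster 3 (110 and 31 cells) was led by the interferon-induced genes Ifit3, Ifit2 and Ifit3b and was not compared, and sub-cluster 1 (85 and 551 cells) was led by Cxcl10, Csf2ra and Socs1.

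**Figure D5:**
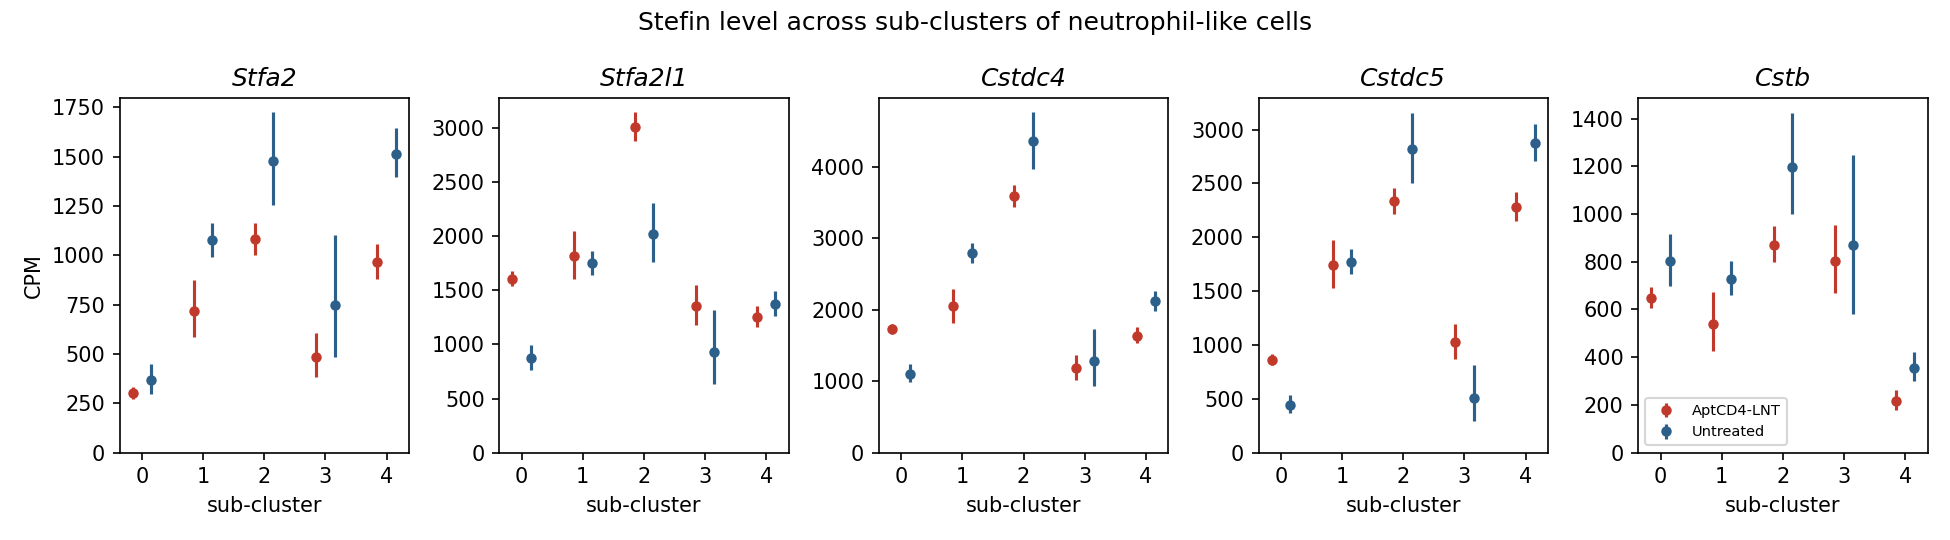
CPM of each stefin in the 5 sub-clusters of neutrophil-like cells for AptCD4-LNT (red, left point) and Untreated (blue, right point), with exact 95% Poisson intervals and a separate vertical axis per gene. Stfa2 is lower in AptCD4-LNT in all 5, with overlapping intervals in sub-clusters 0 and 3. Cstb is lowest in sub-cluster 4, at 217 CPM in AptCD4-LNT and 356 CPM in Untreated cells.

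Within the sub-clusters Stfa2 was also lower in AptCD4-LNT, but by less than the -0.77 of all neutrophil-like cells together. Its log2 ratio was under 0 in 5 of 5 sub-clusters, the small sub-cluster 3 included, and the interval excluded 0 in 3 of them: -0.58 (-0.90 to -0.28) in sub-cluster 1, -0.45 (-0.70 to -0.19) in sub-cluster 2 and -0.65 (-0.83 to -0.48) in sub-cluster 4. In sub-cluster 0, where Stfa2 was lowest, it was -0.28 (-0.60 to 0.056). That sub-cluster held 56.5% of AptCD4-LNT and 27.7% of Untreated neutrophil-like cells, and the part of this in the ratio of all neutrophil-like cells was not tested. Stfa2l1 was higher in sub-clusters 0 (0.88, 0.68 to 1.08) and 2 (0.57, 0.37 to 0.78). Its ratio was over 0 in 4 of 5 sub-clusters, with an interval that excluded 0 in these 2, and stood at 0.053 (-0.15 to 0.25) in sub-cluster 1 and -0.13 (-0.29 to 0.043) in sub-cluster 4. Cstb was lower in 5 of 5, with intervals that excluded 0 in 4. Cstdc5 went both ways, at 0.95 (0.68 to 1.23) in sub-cluster 0 and -0.33 (-0.45 to -0.21) in sub-cluster 4, and Cstdc4 likewise stood at 0.65 (0.48 to 0.83) in sub-cluster 0 and -0.37 (-0.51 to -0.23) in sub-cluster 4.

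Cysteine cathepsins, the proteases that stefins bind, were measured in these cells together with legumain, a cysteine protease of another family. Of 11 genes of cysteine cathepsins and legumain, 9 reached 20 UMIs in neutrophil-like cells, with 2 called higher (15.7% of all genes were) and 1 lower (3.72%) in AptCD4-LNT and a median log2 ratio of -0.09, against 0.21 over all genes. Ctsb, encoding cathepsin B, stood at 638 CPM in AptCD4-LNT and 397 CPM in Untreated cells (log2 ratio 0.68, 0.54 to 0.83). Lgmn, encoding legumain, stood at 90.9 and 50.4 CPM (0.85, 0.46 to 1.26). Ctsc, encoding the cathepsin that activates granule serine proteases, stood at 63.1 CPM in AptCD4-LNT and 145 CPM in Untreated cells (-1.20, -1.50 to -0.89). In cluster 10, where Cstb was highest, Ctsb was also higher than in neutrophil-like cells, at 1698 CPM in AptCD4-LNT and 1047 CPM in Untreated cells. Ctsl (288 and 351 CPM), Ctss (304 and 272 CPM), Ctsz (203 and 190 CPM), Ctsh (49.5 and 71.2 CPM), Ctsk (6.97 and 7.41 CPM) and Ctso (4.40 and 6.67 CPM), each with AptCD4-LNT first, were not called. Of 17 other cystatins in the matrices, 1 reached 20 UMIs, the secreted inhibitor gene Cst3, at 498 CPM in AptCD4-LNT and 490 CPM in Untreated cells (0.02, -0.11 to 0.16).

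Genes of neutrophil stage were counted in the same way, against 15.7% of all genes called higher and 3.72% called lower in neutrophil-like cells. Of 11 granule and early-stage genes, 8 were measured, 0 were called higher and 6 lower in AptCD4-LNT neutrophil-like cells, with a median log2 ratio of -1.78. Ngp stood at 267 CPM in AptCD4-LNT and 1614 CPM in Untreated cells. In cluster 8 alone, 6 were measured, 0 were higher (14.2% of all genes were) and 2 lower (4.75%), and the median was -0.29. Stfa2 was at -0.75 (-0.86 to -0.64) in cluster 8. Of 10 genes of circulating mature neutrophils, 2 were higher and 4 lower (median -0.39) in neutrophil-like cells. Retnlg stood there at 3775 CPM in AptCD4-LNT and 6304 CPM in Untreated cells. Over all high clusters 4 of the 10 were higher (19.3% of all genes were) and 0 lower (5.94%), with a median of 0.12. Of 12 genes of inflammatory tumour neutrophils, 3 were higher and 3 lower (median 0.00) in neutrophil-like cells. Of 11 transcription factors of neutrophils, 9 were measured, with 2 higher and 1 lower (median 0.40). Of 12 genes of immediate early response and stress from tissue dissociation, 4 were higher and 2 lower (median 0.40), with Fos at 3446 CPM in AptCD4-LNT and 1661 CPM in Untreated cells. The part of these differences in the stefin values was not tested.

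Likeness in pattern was taken as Pearson's r of log2(CPM + 1) over 20 points (10 classes or clusters in 2 libraries) and 6893 genes. The points share libraries and free RNA, so r is a description. The array members had r of 0.96 to 0.99 with one another, and Cstb had r of 0.53 to 0.57 with them. Retnlg was most like Stfa2 (0.97), S100a9 was most like Stfa2l1 (0.96) and Cstdc5 (0.97), and Trim30b was most like Cstdc4 (0.94). The genes most like Cstb were Ftl1 (0.92), Bri3 (0.92), Plin2 (0.90), Pgam1 (0.89) and Fth1 (0.88), of which Ftl1 and Fth1 encode the iron-storing ferritin chains and Plin2 coats lipid droplets. Over the 10 points of the 5 sub-clusters the array members parted, with r of 0.41 between Stfa2 and Stfa2l1 and 0.85 between Stfa2l1 and Cstdc4. There Prok2 was most like Stfa2 (0.94), Npepps most like Stfa2l1 (0.89), Smpd5 most like Cstdc4 (0.90), Pygl most like Cstdc5 (0.96) and Arl3 most like Cstb (0.95).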

How the data were processed

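Single-cell RNA was measured in 2 libraries, AptCD4-LNT and Untreated, each from 3 mixed tumours. The deposited matrices hold UMI counts per gene and barcode that the authors made with Cell Ranger 7.2.0 on GRCm39, per the submitters' processing notes; read length and transcript end are not given in the sources used here. They hold 8931 and 20040 barcodes with 98968100 and 131295224 UMIs. Barcodes under 200 genes or above 20% mitochondrial UMIs were dropped, and Scrublet at its automatic threshold removed 200 (2.26%) and 1490 (7.45%) doublets. scanpy 1.11.5 clustered both libraries together (2000 variable genes without the stefin family, 30 components, 15 neighbours, Leiden resolution 1, sub-clusters 0.5). Clusters were called X-like from listed markers. UMIs were summed per class and library and given as CPM, with exact Poisson or Clopper-Pearson 95% intervals; ratios have exact conditional binomial intervals, and the log2 odds ratio a normal (Woolf) interval. UMIs of 1 cell are not replicates, so these cover counting error only. Genes with 20 or more UMIs and classes with 50 or more cells in each library were compared. Genes were named by list (stefin family, other cystatins, cathepsins, neutrophil stage) and by highest r. Members and lists were chosen with earlier results of these data known. The counting step was run on simulated Poisson counts with known ratios. These held no variation between cells or tumours, so they do not check the intervals for it. Alternatives covered doublets, cell choice, filters, weighting, scaling and thinning. Of 19 marker lists, the 6 read beside the results are given, and 1 marker gene is not reported here.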

Additional observations from a re-analysis of the deposited data

Results flagged for a closer look

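Cstb differed in direction between cell classes. Its log2 ratio of AptCD4-LNT over Untreated was 0.09 in cluster 10, while it was -0.35 in epithelial-like, -0.49 in fibroblast-like, -0.66 in T and NK-like, -0.23 in macrophage-like, -0.43 in endothelial-like and -0.81 in pericyte-like cells, -0.43 in cluster 11 and -1.41 in cluster 15. These differences between classes were not tested, since each class has 1 library per group, and the value of cluster 10 is -0.12 relative to the median of all genes there.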

How the results depend on the processing

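Values here are log2 ratios of AptCD4-LNT over Untreated in neutrophil-like cells unless said otherwise. Stfa2 was lower and Stfa2l1 higher in AptCD4-LNT under every alternative run, and the log2 odds ratio of the pair stayed below 0. The sum of the 5 members was -0.14.

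With the stefin family kept for clustering (1628 AptCD4-LNT and 350 Untreated cells), Stfa2l1 was 0.55, Cstdc4 0.11, Cstdc5 -0.56, Cstb 0.39, the sum -0.045 and the pair's odds ratio -1.26. With doublets removed at the expected rate (1681 and 729 cells), Stfa2 was -0.59, Stfa2l1 0.65, Cstdc4 0.22, Cstdc5 -0.27, Cstb 0.082 and the sum 0.085. With no doublet removal (1709 and 867 cells), Stfa2l1 was 0.53, Cstdc4 0.087, Cstdc5 -0.40, Cstb 0.085 and the sum -0.031. The array members then stood 3.74 above the highest other class in AptCD4-LNT and 3.78 above it in Untreated cells (log2), and neutrophil-like cells were 4.33% of Untreated cells. With the stricter filter of 500 genes and 10% mitochondrial UMIs (1536 and 308 cells), Stfa2l1 was 0.61, Cstdc4 0.16, Cstdc5 -0.48, Cstb 0.27, the sum -0.026 and the odds ratio -1.43. With cells chosen one by one by S100a8 plus S100a9 (1990 and 2690 cells, 23.0% and 14.5% of all), Stfa2 was -0.57, Cstdc4 -0.25, Cstdc5 0.061, Cstb -0.84, the sum -0.18 and the odds ratio -0.96. Over all high clusters, an alternative chosen after seeing the data, as were all those of the pair, Stfa2 was -0.63, Cstdc4 -0.39, Cstdc5 0.014, Cstb -0.92, the sum -0.29 and the odds ratio -0.95, and the shares of cells were 24.6% and 16.2%.

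With each cell weighted equally, Stfa2 was -0.92, Cstdc5 -0.23, the sum -0.092, the odds ratio -1.31, and the array members stood 5.54 above the highest other class in Untreated cells. With the median gene at 0, Stfa2 was -0.98, Stfa2l1 0.13, Cstdc4 -0.36, Cstdc5 -0.52, Cstb -0.33 and the sum -0.35. Without S100a8, S100a9 and mitochondrial UMIs in the total the sum was -0.20. Thinned to 1000 UMIs, Stfa2 was -1.20, Cstdc4 -0.30, Cstdc5 -0.76, the sum -0.36 and the odds ratio -1.51. The log2 ratios of shares of cells with a UMI were then -0.81 for Stfa2, 0.10 for Stfa2l1, -0.11 for Cstdc4, -0.36 for Cstdc5 and -0.072 for Cstb, and at 500 UMIs -0.67 for Stfa2 and -0.14 for Cstb. Log2 of the highest over the lowest sub-cluster at resolution 0.3 was 1.28 for Stfa2, 0.19 for Stfa2l1, 0.10 for Cstdc4, 1.0004 for Cstdc5 and 0.62 for Cstb, and at resolution 1 it was 2.40 for Stfa2, 1.36 for Stfa2l1, 1.86 for Cstdc5 and 1.97 for Cstb. The directions of Cstdc4, Cstdc5, Cstb and the sum thus changed with the choice of cells, and the cause was not tested.

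No paired analysis was possible because each group has 1 library, and for the same reason no replicate was left out.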
